A study of Mus musculus with 13 samples.

Results

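Estrogen receptor-α (ESR1) is a hormone-activated transcription factor that binds DNA at an estrogen response element (ERE) or through partner factors. Its sites are best known from promoters, introns and intergenic enhancers. Exons are the parts of a gene that are kept in the messenger RNA, where they encode protein or form its untranslated ends. The data described here are the exonic ESR1 peaks away from promoters. They were chosen by position alone: the peak summit lay inside an annotated exon and more than 3 kb from every transcription start site (TSS) of the GENCODE vM21 basic annotation of the mouse mm10 assembly. Of 686823 peaks in 12 lists, 22982 (3.35%) met this rule, in 6350 host genes. A site seen in several libraries counts once in each.

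The libraries came from ChIP-Seq, the sequencing of DNA fragments recovered with an antibody to ESR1, in primary cultures of fibroblasts from lower abdominal muscle (LAM). The donors were Aromhum mice, whose added human aromatase gene converts androgens to estradiol (E2). The hernia-associated fibroblasts (HAFs) of all 4 treatments were serum-starved in medium without phenol red. Vehicle cultures received only the solvents, E2 cultures received 10 nM E2, E2 plus fulvestrant cultures received 100 nM fulvestrant before 10 nM E2, and fulvestrant cultures received 100 nM fulvestrant alone. Harvest followed 1 hour after E2 or its solvent, and each treatment had 3 libraries. Fulvestrant blocks ESR1 and promotes its degradation. The labels did not say whether replicates came from separate animals, so the p-values measure the spread between these libraries, which may be technical. Peak lists cannot separate fewer cells with bound receptor from less binding per cell, and they hold no RNA with which the fibroblast label could be checked.

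Lists held 34293 to 104571 peaks, and read totals were not part of them. E2 replicate 1 and fulvestrant replicate 2 stood apart from the other 10 libraries. Of their intronic peaks 63.1% and 29.6% lay in repeat-masked sequence, against 6.40% to 9.38% in the other 10, and the mean GC content of their exonic summits was 60.9% and 58.0%, against 49.7% to 52.2%. Together they supplied 3816 and 4573 of the exonic peaks. Many results that rest on them are given with and without them, while the host genes and gene lists of recurrent regions are given over all 12 libraries only. In tests that used both, leaving out the pair was a setting added after seeing the data.

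The sites with the clearest sequence feature were the exonic regions with an ERE that were seen in most libraries given E2. They are shown because they are the strongest exonic regions in which the sequence known to bind ESR1 lay at the summit. The ERE searched for was GGTCA, then 3 bases of any kind, then TGACC. At most 1 mismatch was allowed, and the element had to lie in the 100 bp on either side of a summit. This sequence reads the same on both strands. The windows below are from the plus strand of the GRCm38 reference, with the element in capitals.
Rbbp6, 3′ untranslated, chr7:122981751-122981779: gccacgtaGGTCATGCTGACCttaaacct
Gm28818, non-coding transcript, chr1:71896658-71896686: gttcatgaGGGCAGTCTGACCtgctggca
Ssr3, 3′ untranslated, chr3:65381649-65381677: tcagtccaGGTTACCATGACCtctgacag
Gm14014, non-coding transcript, chr2:106576969-106576997: aaagcaaaGGTCAGCTGGACCcagcattg
Usp50, coding, chr2:126775820-126775848: ttgctccaGGTCAGTGTGTCCtgttggaa
The element in Rbbp6 matched without a mismatch and its centre lay 1 bp from the best summit. The other elements each had 1 mismatch, and their centres lay 17 to 61 bp from the best summit.

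The first question was how often ESR1 peaks fell in exons under each treatment. Exonic peaks made up 2.90%, 2.75% and 3.05% of the list in vehicle replicates 1, 2 and 3, and 3.65%, 2.71% and 2.94% in the E2 replicates. With E2 plus fulvestrant the shares were 2.48%, 2.81% and 3.32%, and with fulvestrant alone 2.83%, 5.66% and 3.12%. Apart from E2 replicate 1 and fulvestrant replicate 2, the treatments overlapped between 2.48% and 3.32%. The widest Wilson 95% interval of a single library was that of vehicle replicate 2, from 2.58% to 2.92%, and such intervals cover counting error only.

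The mean share was 2.90% ± 0.151 for vehicle, 3.10% ± 0.491 for E2, 2.87% ± 0.426 for E2 plus fulvestrant and 3.87% ± 1.56 for fulvestrant alone (SD, n = 3). By two-sided exact permutation tests E2 differed from vehicle by 0.200 percentage points (p = 0.8), and from E2 plus fulvestrant by 0.227 points (exact permutation p = 0.6). Fulvestrant differed from vehicle by 0.975 points (exact permutation p = 0.3), which was 0.0801 points without fulvestrant replicate 2. E2 plus fulvestrant differed from vehicle by −0.0269 points (exact permutation p = 1). Pooled, the 6 libraries with E2 differed from the 6 not given it by −0.401 points (exact permutation p = 0.595), and by −0.0783 points without the pair of libraries that stood apart (exact permutation p = 0.635). The adjusted p was 1 in each of these 5 comparisons (exact permutation tests with Benjamini-Hochberg adjustment). With 3 libraries against 3 the smallest possible exact p is 0.1, so the 3 against 3 comparisons could not reach 0.05, and none of the 5 differences exceeded the spread between replicates. The effect of fulvestrant with E2 minus its effect without E2 was −1.20 points as a difference of differences (exact permutation p = 0.212 over 369600 assignments), −0.0318 points without that pair (exact permutation p = 0.914) and −1.72 points without fulvestrant replicate 1 (exact permutation p = 0.0400).

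**Figure D1:**
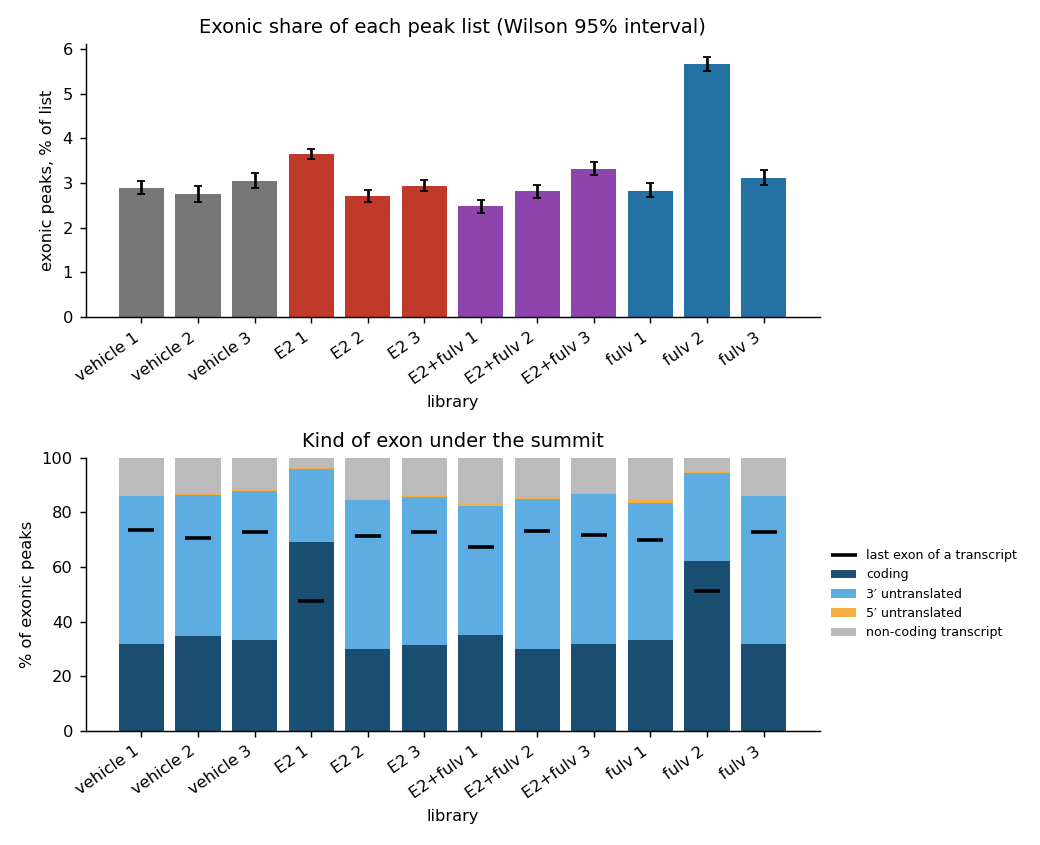
The upper bars give exonic peaks as a percent of each list, coloured by treatment, with Wilson 95% intervals. The lower bars split the exonic peaks of each library by kind of exon, and black marks give the percent in the last exon of a transcript. Fulvestrant replicate 2 has the highest share (5.66%), and coding exons hold 69.2% and 62.2% of the exonic peaks in E2 replicate 1 and fulvestrant replicate 2, against 30.1% to 35.1% elsewhere.

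Which exons carried the peaks differed by kind. Exonic sequence outside promoters spans 59.2 Mb, or 2.24% of the genome, of which 42.7% is coding and 43.1% is 3′ untranslated. In the 10 libraries that did not stand apart, coding exons held 30.1% to 35.1% of exonic peaks and 3′ untranslated sequence held 47.3% to 54.7%. Exons of non-coding transcripts held 11.5% to 16.6%, and 5′ untranslated sequence held 0.212% to 1.16%. In all 10 of these libraries the coding share was below, and the 3′ untranslated share above, the share of sequence of that kind. E2 replicate 1 and fulvestrant replicate 2 had the opposite order, with 69.2% and 62.2% in coding exons and 26.5% and 32.3% in 3′ untranslated sequence.

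Last exons, which end the transcript and hold most 3′ untranslated sequence, make up 61.1% of this exonic sequence. Their share of exonic peaks was 73.4%, 70.5% and 72.8% in the vehicle replicates, and 47.6%, 71.3% and 72.8% in the E2 replicates. It was 67.5%, 73.0% and 71.9% with E2 plus fulvestrant, and 70.0%, 51.1% and 72.9% with fulvestrant. Libraries given E2 minus those not given it was −1.12 points (two-sided exact permutation p = 0.652), −0.630 points without the pair that stood apart (exact permutation p = 0.643) and 2.84 points without E2 replicate 1 alone, all within the spread between libraries. In the 10 libraries 70.1% to 75.7% of exonic summits lay within 3 kb of a transcript end of their gene, and the median exon under a summit was 1565 to 1922 bp long.

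Per length of sequence, exons outside promoters had a median of 24.2 peaks per Mb per library over the 10 libraries. The same median was 59.6 in promoters, 16.8 in introns and 8.83 in intergenic sequence. Within exons it was 30.5 in 3′ untranslated sequence, 24.4 in non-coding transcripts and 17.5 in coding sequence. In coding sequence E2 replicate 1 reached 104 peaks per Mb and fulvestrant replicate 2 reached 113, above the 12.9 to 27.8 of the other 10. In exons of non-coding transcripts the same libraries had 17.3 and 27.4 peaks per Mb, inside the range of 15.5 to 35.1 in the others.

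**Figure D2:**
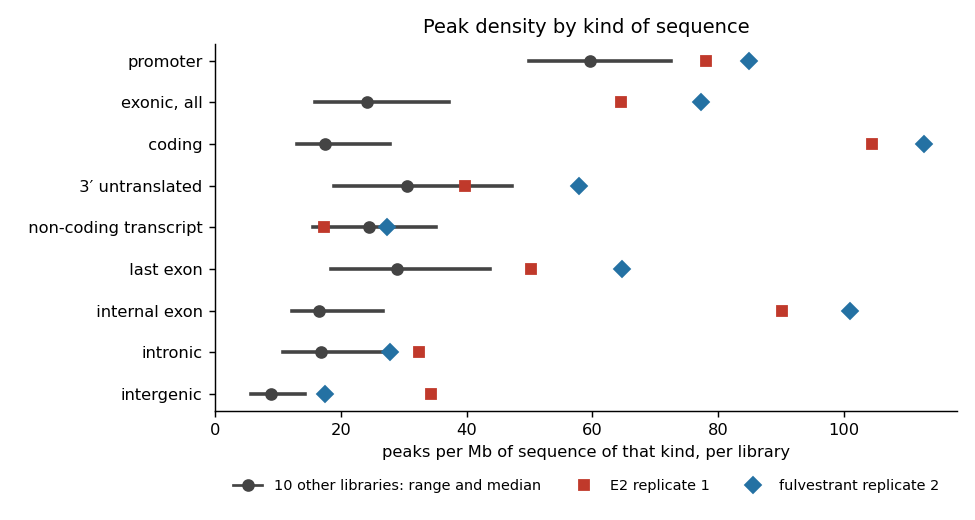
Horizontal position is the number of peaks per Mb of each kind of sequence in 1 library. Grey lines and points give the range and median of 10 libraries, the red square E2 replicate 1 and the blue diamond fulvestrant replicate 2. The last 2 lie at 104 and 113 in coding exons, outside the grey range of 12.9 to 27.8, but inside or close to the range in non-coding transcripts.

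The annotation bears on what counts as away from a promoter. Of the exonic peaks of the 10 libraries, 23.3% to 27.4% lay within 3 kb of a TSS when the full GENCODE set, with its many partial transcripts, was used instead of the basic one. For E2 replicate 1 this was 35.5%, and for fulvestrant replicate 2 it was 33.9%. Just inside the distance limit, 1312 exonic summits lay over 3000 and up to 3500 bp from a TSS, with a median GC content of 55.7% and a median rank percentile of 58.2. Just outside it, 1641 summits in exons lay 2500 to 3000 bp from a TSS, with a median GC content of 54.7% and a median rank percentile of 54.5.

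The next question was how exonic peaks compared in strength and sequence with intronic peaks of the same libraries. Within a list, peaks were ranked by their p-value, and a rank percentile near 0 is a strong peak. The median exonic peak stood at percentile 54.2 to 62.6 of its list, with a median fold enrichment over local background of 2.79 to 3.07 in 10 libraries, 3.10 in fulvestrant replicate 2 and 3.92 in E2 replicate 1. The strongest 10% of the list held 4.52% of exonic peaks and 4.44% of intronic peaks on average, a difference of 0.0770 percentage points ± 1.48 (SD of the differences, n = 12, two-sided exact sign-flip permutation p = 0.856). It was positive in 7 of 12 libraries and turned negative under some settings. Without the pair that stood apart it was 0.254 points (exact sign-flip permutation p = 0.537). The test did not separate exonic from intronic peaks in strength. In the 10 libraries, for comparison, 13.4% to 19.4% of promoter peaks were in the strongest 10%, against 4.07% to 5.87% of exonic peaks. In E2 replicate 1 these shares were 26.2% and 1.78%, and in fulvestrant replicate 2 they were 26.45% and 2.60%.

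Exonic summit windows had a mean GC content of 52.3%, against 47.5% at intronic summits. The difference was 4.87 percentage points ± 1.49 and was positive in 12 of 12 libraries (exact sign-flip permutation p = 0.000488, the smallest possible, adjusted p = 0.000977 over 4 measures). Without the pair that stood apart it was 4.45 points (exact sign-flip permutation p = 0.00195). Repeat-masked windows were 11.2 points ± 16.1 less frequent among exonic peaks, in 12 of 12 libraries (adjusted p = 0.000977 from an exact permutation p of 0.000488). With the omission of E2 replicate 1 and fulvestrant replicate 2 this difference was −4.93 points (exact permutation p = 0.00195).

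EREs lay at fewer exonic than intronic summits. The shares were 1.54% and 2.49% on average, a difference of −0.946 percentage points ± 0.528 (SD of the differences, n = 12) that had this sign in 11 of 12 libraries (two-sided exact sign-flip permutation p = 0.00146, adjusted p = 0.00195). The exception was E2 replicate 1, with 0.917% of exonic and 0.729% of intronic summits. It was −1.15 points without the pair that stood apart (p = 0.00195, exact permutation) and −8.12 points among peaks with a −log10 q of at least 10 (p = 0.000488, exact permutation). As a background, windows 2 kb upstream of the exonic summits on the plus strand were searched too, whatever the strand of the gene. These windows need not lie in exons, and held an ERE in 0.296% to 0.727% of cases. All 12 libraries had more EREs at exonic summits than in that background. The background of intronic summits, placed in the same way, was 0.579% to 1.05%. In E2 replicate 1 the intronic share of 0.729% lay below its background of 1.05%. The exonic and intronic shares compared above were not corrected for background.

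Pooled ERE shares differed between kinds of exon. Pooled over the 10 libraries, an ERE lay at 61 of 2023 summits in non-coding transcripts (3.02%), 127 of 7795 in 3′ untranslated sequence (1.63%) and 57 of 4678 in coding exons (1.22%). Over all peaks of these libraries, exonic or not, the share was 2.32%. These pooled counts hold the same sites several times and carry no test. In single libraries of the 10 the share ran from 2.43% to 4.76% in non-coding transcripts and from 0.410% to 2.92% in 3′ untranslated sequence. It ran from 0% to 2.21% in coding exons, so the 3′ untranslated range overlapped both others. The AP-1 site, bound by FOS and JUN dimers that can tether ESR1, was searched as TGANTCA (N is any base). It lay at 6.76% of exonic summits in the 10 libraries, against 5.69% in the background, and at 10.0% of intronic summits, against 6.22%. An AP-1 site lay at 2.31% of exonic summits of E2 replicate 1 and 3.04% of those of fulvestrant replicate 2, below their background of 5.32% and 5.20%.

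Across treatments, the ERE share of exonic summits was 1.21%, 1.06% and 1.40% in the vehicle replicates and 0.917%, 2.30% and 2.03% in the E2 replicates. It was 2.56%, 2.03% and 1.82% with E2 plus fulvestrant and 1.24%, 1.07% and 0.840% with fulvestrant alone. The 5 libraries given E2 other than E2 replicate 1 exceeded every library without E2, and E2 replicate 1 was the second lowest of the 12. These shares rest on few windows, from 10 in vehicle replicate 2 to 49 in fulvestrant replicate 2, and the Wilson 95% interval of vehicle replicate 2 reached from 0.578% to 1.94%.

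The mean ERE share was 1.22% ± 0.171 for vehicle, 1.75% ± 0.733 for E2, 2.14% ± 0.385 for E2 plus fulvestrant and 1.05% ± 0.203 for fulvestrant alone (SD, n = 3). The 6 libraries given E2 exceeded the 6 not given it by 0.804 points (p = 0.0130 by a two-sided exact permutation test, with an adjusted p of 0.0649 over 5 comparisons), which did not pass 0.05 after adjustment. With E2 replicate 1 left out the excess was 1.01 points (exact permutation p = 0.00216), and without that library and fulvestrant replicate 2 it was 0.995 points (exact permutation p = 0.00794, adjusted p = 0.0397). Leaving out both was a setting added after seeing the data. E2 replicate 1, left out in both cases, had the lowest share of the libraries given E2. With all 12 libraries, the excess was 0.313 points when only peaks of −log10 q 10 or more were used (exact permutation p = 0.857). E2 plus fulvestrant exceeded vehicle by 0.911 points with all 3 libraries above all 3 (p = 0.1, the smallest that this exact permutation test can give, with an adjusted p of 0.25). E2 exceeded vehicle by 0.523 points (exact permutation p = 0.4) and differed from E2 plus fulvestrant by −0.388 points (exact permutation p = 0.5). Fulvestrant alone differed from vehicle by −0.173 points (exact permutation p = 0.5). The adjusted p of these last 3 comparisons was 0.5 (exact permutation). The difference of differences was 0.561 points (exact permutation p = 0.407).

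**Figure D3:**
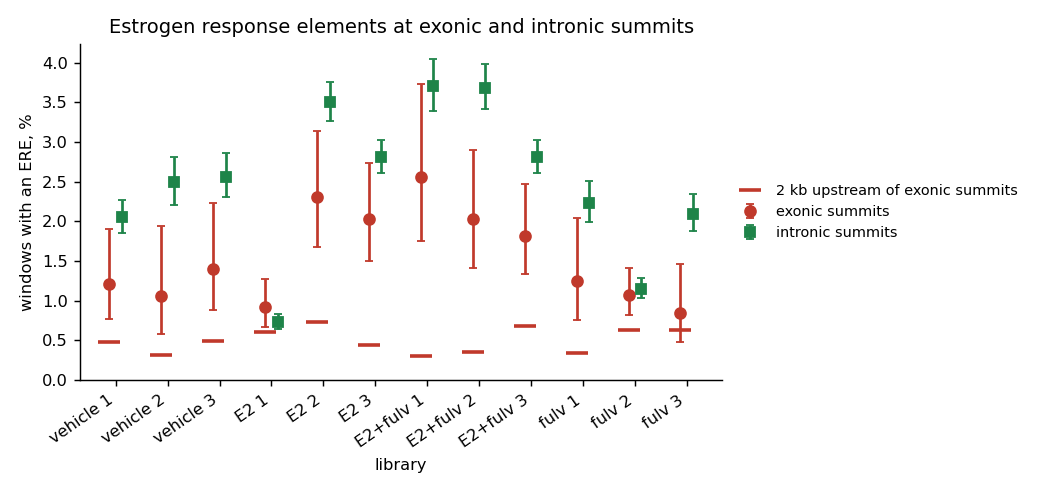
Vertical position is the percent of summit windows with an ERE, in each of 12 libraries. Red circles are exonic and green squares intronic summits with Wilson 95% intervals. Red dashes are windows 2 kb upstream of the exonic summits on the plus strand, whatever the strand of the gene. Intronic shares lie above exonic ones except in E2 replicate 1, and exonic shares of 1.82% to 2.56% in 5 libraries given E2 lie above the 0.840% to 1.40% of the 6 libraries without it.

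Among the exonic peaks in the strongest 10% of a list, a description added after seeing the data, an ERE lay at 5 of 62, 2 of 44 and 6 of 71 in the vehicle replicates. The E2 replicates had 0 of 68, 8 of 82 and 6 of 83. With E2 plus fulvestrant there were 7 of 51, 8 of 84 and 7 of 127, and with fulvestrant 4 of 49, 1 of 119 and 5 of 76. The strong exonic peaks of the 10 libraries had EREs at 4.55% to 13.7% of summits, against 0.517% to 1.97% in the weaker ones. The 0 of 68 in E2 replicate 1 allows a share of up to 4.41% by counting error alone, and 63.2% of its strong exonic peaks lay in coding exons.

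Recurrence was followed over regions, made by merging peaks of the 12 lists that overlapped by at least 1 bp. A region was exonic when most of its summits were exonic. There were 8478 exonic regions among 228284. Of these, 6009 (70.9%) had a peak in 1 library only, of which 2052 were from E2 replicate 1 and 2047 from fulvestrant replicate 2. Of the intronic regions 67.0% were seen once, and of all regions 64.2%. Peaks in 6 or more libraries were found in 659 exonic regions (7.77%), in 9.75% of intronic regions and in 12.8% of all regions. All 12 libraries had a peak in 107 exonic regions (1.26%), in 0.912% of intronic regions and in 3.42% of all regions. Exonic regions in all 12 libraries were long, with a median of 2818 bp against 358 bp for all exonic regions, so that several summits shared 1 region. Of these 107 regions, 37.4% had their best exonic summit within 3 kb of a TSS of the full annotation, against 25.6% of the 659. None of the 107 had an ERE at that summit. In the 10 libraries alone 59.5% of 3755 exonic regions were seen once and 178 (4.74%) in all 10. For intronic regions these shares were 56.7% and 4.85%, and for all regions 49.9% and 10.1%.

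Each treatment had its own count of exonic regions with a peak in 3 of 3 libraries, which was 268 for vehicle, 251 for E2, 348 for E2 plus fulvestrant and 311 for fulvestrant. Over all regions, exonic or not, the counts were 14820, 13421, 20376 and 15310, so the treatments had the same order of size. The E2 count needed a peak in E2 replicate 1, and the fulvestrant count needed a peak in fulvestrant replicate 2. Of the 8478 exonic regions, 343 had a peak in at least 2 of 3 libraries of every treatment, as did 18094 of all 228284 regions.

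Recurrent regions lay in other exons than single ones. Of the 6009 exonic regions seen once, 58.5% were coding and 51.4% in a last exon. Of the 659 seen in 6 or more libraries, 26.1% were coding, 57.4% were 3′ untranslated, 15.8% were in non-coding transcripts and 81.3% in a last exon. In the 10 libraries the coding share was 35.5% of regions seen once and 24.2% of regions seen in 6 or more, a smaller gap. The last-exon share was then 68.4% and 82.6%. Of the 107 regions in all 12 libraries 34.6% were coding. By kind, 3.79% of 4537 coding regions, 11.7% of 3221 regions in 3′ untranslated sequence and 15.5% of 671 regions in non-coding transcripts had a peak in 6 or more libraries. In the 10 libraries these values were 11.6%, 16% and 21.1%.

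**Figure D4:**
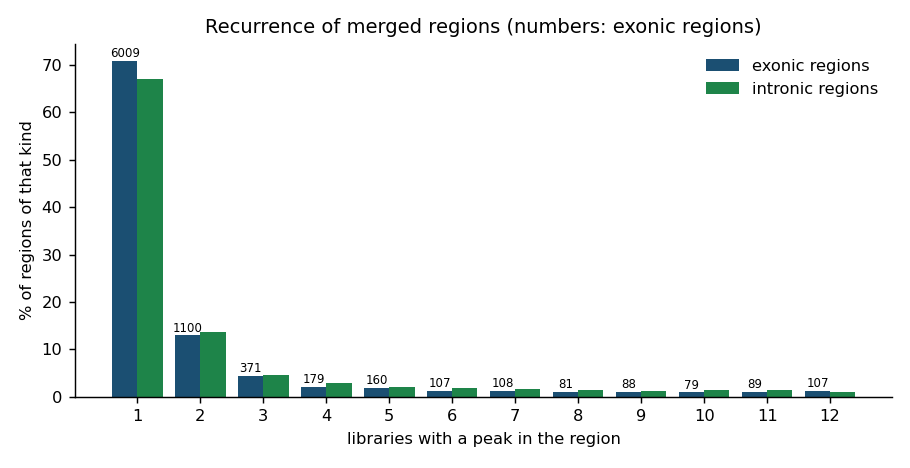
Bars give the percent of exonic (blue) and intronic (green) regions with a peak in 1 to 12 libraries, and the numbers count exonic regions. Most regions were seen once (6009 exonic regions, 70.9%), and the exonic count was 79 at 10 libraries and 107 at 12.

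The strongest recurrent exonic regions were in a mixed set of genes. The 10 with the best mean rank percentile among those in at least 10 libraries included regions in Atn1, Cacna1a, 4933402J15Rik, Fam171a2, Kank2, Ucp2, Sorbs3, Prr7 and Bcl9l. In 6 of them the best exonic summit was coding, in 3 it was 3′ untranslated, and in the non-coding transcript 4933402J15Rik it was in the last exon. None of the 10 had an ERE or an AP-1 site within 100 bp of the best exonic summit, and other summits of these regions are not covered by this. Among the named regions with a peak in 12 libraries, those in Atn1, Cacna1a and Fam171a2 lay within 3 kb of a TSS of the full annotation. The mean rank percentiles of the 10, taken over the best peak of any kind in each library, were 0.180 to 2.79. The fold enrichments below are those of the best exonic peak of a library in the region. They were not rescaled between lists of 34293 to 104571 peaks, so values of different libraries are set side by side as a description.

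Atn1 encodes atrophin-1, a transcriptional corepressor, and its region (chr6:124744485-124747718) was the strongest. Fold enrichment there was 12.2, 9.05 and 15.7 in the vehicle replicates, 43.0, 14.5 and 17.9 with E2, 9.05, 12.8 and 18.2 under E2 plus fulvestrant, and 12.5, 26.2 and 20.2 with fulvestrant. E2 replicate 1 was the highest, and without it and fulvestrant replicate 2 the treatments overlapped. Its summit window was 68.7% GC, lay in exons of 2 genes, and was within 3 kb of a TSS of the full annotation.

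Cacna1a encodes the pore subunit of a neuronal calcium channel, and its region (chr8:84633315-84640055) had 34 summits, of which 18 were exonic. The best peak of the region was exonic in 1 of 12 libraries only, so its rank was that of a neighbouring summit outside the exon. Its best exonic peak ranked 1406 to 9327, with fold enrichment of 6.43, 3.53 and 5.63 for vehicle, 22.1, 6.01 and 6.82 for E2, 5.87, 5.56 and 5.59 for E2 plus fulvestrant, and 4.74, 6.85 and 4.74 for fulvestrant. Apart from E2 replicate 1 all values lay between 3.53 and 6.85.

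Kank2 encodes an adaptor protein of focal adhesions, and its region (chr9:21766854-21770895) lay in the 3′ untranslated part of the last exon. Fold enrichment was 6.74, 5.09 and 4.31 with vehicle, 39.4, 11.6 and 10.9 with E2, 8.58, 8.54 and 10.7 under E2 plus fulvestrant, and 5.89, 10.6 and 5.71 with fulvestrant. All E2 libraries were above all vehicle libraries here, and fulvestrant replicate 2 lay with the libraries given E2. The summit window was 57.2% repeat-masked.

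The non-coding transcript 4933402J15Rik (chr14:74368164-74370440) showed a similar order of values, with 8.79, 8.69 and 11.2 with vehicle and 29.9 and 30.4 in E2 replicates 2 and 3. Fold enrichment there was 14.1, 23.7 and 32.3 with E2 plus fulvestrant and 9.63 and 12.8 in fulvestrant replicates 1 and 3. E2 replicate 1 and fulvestrant replicate 2, the libraries that stood apart, had no peak in it.

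Further regions of this set are given by their ranges. Ucp2, which encodes a mitochondrial carrier, had 7.31-fold to 11.3-fold enrichment in its 3′ untranslated sequence. Sorbs3, which encodes the adhesion adaptor vinexin, ranged from 5.62 to 13.8 in 9 libraries, and Prr7 from 4.17 to 13 in 12, both in coding sequence. Bcl9l, which encodes a coactivator of β-catenin in Wnt signaling, ranged from 5.20 to 21.8 in its 3′ untranslated sequence, and Fam171a2 from 6.22 to 34.5 in coding sequence. The highest value was in E2 replicate 1 for Prr7, Bcl9l and Fam171a2, in fulvestrant replicate 2 for Sorbs3, and in E2 plus fulvestrant replicate 3 for Ucp2.

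The 5 ERE regions printed above were chosen for peaks in at least 4 of the 6 libraries given E2, so the following values describe them and carry no test. Rbbp6, which encodes a ubiquitin ligase that binds the retinoblastoma protein, had 6.34-fold, 5.21-fold and 8.48-fold enrichment with vehicle, and 18.9 and 17.3 in E2 replicates 2 and 3. It had 9.12, 12.7 and 19.7 with E2 plus fulvestrant, and 5.47 and 9.36 in fulvestrant replicates 1 and 3. E2 replicate 1 and fulvestrant replicate 2 had no peak there.

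Gm28818, a non-coding gene, had 5.07, 4.06 and 5.50 with vehicle, 16.8 and 14.2 in E2 replicates 2 and 3, 7.61, 10.8 and 13.5 with E2 plus fulvestrant, and 4.94 and 5.25 in fulvestrant replicates 1 and 3. The other libraries had no exonic peak, and the 5 values with E2 were all above the 5 without it. Gm14014, a second non-coding gene, had 3.40, 3.36 and 4.73 with vehicle, 14.2 and 13.3 in E2 replicates 2 and 3, 6.02, 7.92 and 7.20 with E2 plus fulvestrant, and 2.69 and 2.50 in fulvestrant replicates 1 and 3. Leaving aside the 2 libraries that stood apart, folds in both non-coding exons were highest with E2, then with E2 plus fulvestrant, and lowest with vehicle and fulvestrant. Both regions were chosen for peaks in libraries given E2, and folds were not rescaled, so this order is a description only.

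Ssr3, which encodes a subunit of the complex that moves proteins into the endoplasmic reticulum, had 5.98 and 3.18 in vehicle replicates 1 and 3 and no peak in replicate 2. It had 3.21, 17.4 and 19.1 with E2, 14.9, 20.4 and 27.4 under E2 plus fulvestrant, and 7.68, 3.64 and 9.68 with fulvestrant. Usp50, of the ubiquitin-specific protease family, had no peak with vehicle. It had 7.03 and 5.84 in E2 replicates 2 and 3, 6.05 and 5.45 in E2 plus fulvestrant replicates 1 and 3, and 3.76 in fulvestrant replicate 3. E2 plus fulvestrant replicate 2 also had a peak in the region, with a fold of 8.07 and its summit outside the exon. Usp50 was the sole coding exon among the 12 ERE regions seen in 6 or more libraries.

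**Figure D5:**
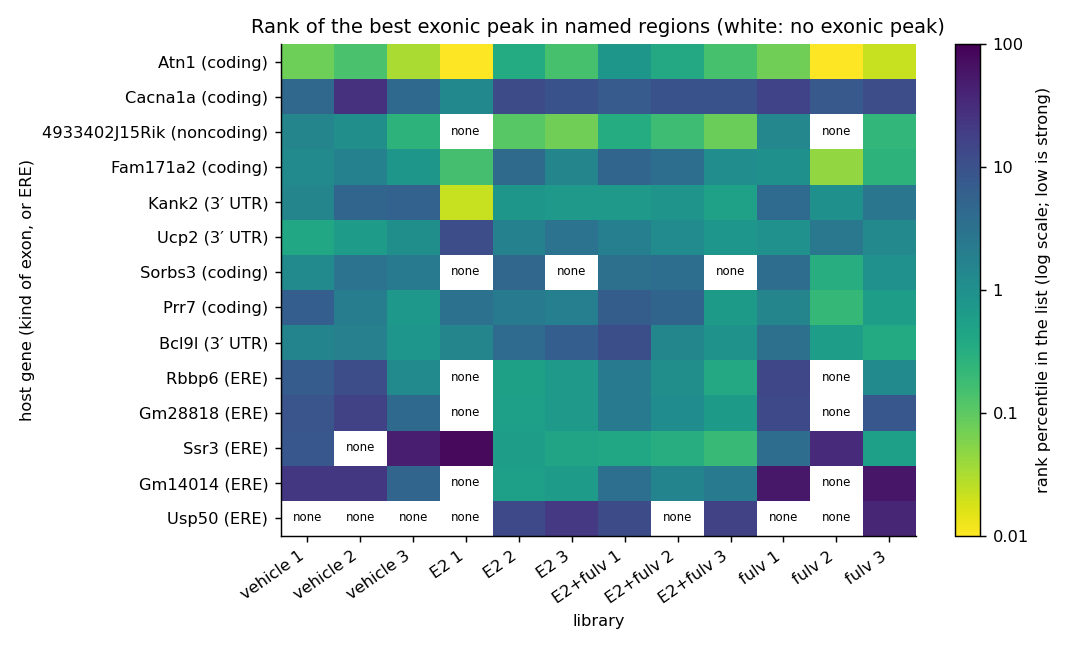
Rows are exonic regions named by host gene, the upper 9 among the 10 strongest recurrent ones and the lower 5 with an ERE, and columns are the 12 libraries. Colour is the rank percentile of the best exonic peak on a log scale with values under 0.01 drawn as 0.01, and white cells marked none have no exonic peak. The ERE regions of Rbbp6, Gm28818 and Gm14014 have none in E2 replicate 1, while E2 replicate 1 ranks Atn1 at number 8 of 104571 peaks.

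The other 7 of these 12 regions were in the exons of 8030453O22Rik, Sh3tc2, Timp2, Ift46, Rab11b, Bcl2l1 and Pafah1b2, and were named because the 12 are few. They had mean rank percentiles of 19.9 to 65.7. Timp2 encodes an inhibitor of matrix metalloproteinases, and the perfect ERE in its 3′ untranslated sequence had a peak in 2 of 3 vehicle, 1 of 3 E2, 1 of 3 E2 plus fulvestrant and 3 of 3 fulvestrant libraries. Sh3tc2, with a 1-mismatch ERE, had a peak in 1 of 3 vehicle libraries, 3 of 3 with E2, 3 of 3 with E2 plus fulvestrant and 0 of 3 with fulvestrant. Bcl2l1, which encodes a protein that blocks cell death, had 1, 3, 2 and 1 of 3 in the same order. An ERE in an exon thus came with different orders of libraries.

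Over the 44 exonic ERE regions seen in at least 2 libraries, a description added after seeing the data, the 5 libraries given E2 other than replicate 1 each had 40.9% to 61.4%. The 5 libraries without E2 other than fulvestrant replicate 2 each had 13.6% to 25.0%. E2 replicate 1 had 36.4% and fulvestrant replicate 2 had 43.2%. For the 2425 exonic regions without an ERE in the best summit window these shares were 20.5% to 47.4% and 20.2% to 33.4%, which overlap. The lists of libraries given E2 were mostly longer, and the part of list length in this difference was not tested. For the 132 of these 2425 regions that had an AP-1 site the shares were 29.5% to 70.5% and 25.0% to 43.2%.

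The design also allows regions to be counted that separate treatments, with a peak in all 3 libraries of one and none of the other. For E2 and not vehicle there were 15 such exonic regions (0.177% of exonic regions), against 0.344% of all 228284 regions. For vehicle and not E2 there were 4 (0.0472%, against 0.0162% of all). For E2 and not E2 plus fulvestrant there were 11 (0.130%, against 0.207%), and for the reverse 1 (0.0118%, against 0.0732%). For fulvestrant and not vehicle there were 16 (0.189%, against 0.144%), and for vehicle and not fulvestrant 3 (0.0354%, against 0.0924%). These were 44 distinct regions, and none had a mean rank percentile under 10. Lists of different length were compared here, and the part of list length in these counts was not tested.

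Requiring fewer libraries makes this rule easier to meet. The percentages below keep all 8478 exonic regions and all 228284 regions as their base, with those seen only in the library left out. For E2 replicate 1 those were 2052 exonic regions and 66023 of all, and for fulvestrant replicate 2 they were 2047 and 26760. Without E2 replicate 1 there were 138 exonic regions with E2 and not vehicle (1.63%, against 3.25% of all) and 4 for the reverse (0.0472%, against 0.0197%). For E2 and not E2 plus fulvestrant there were then 73 (0.861%, against 1.51%), and 3 for the reverse (0.0354%, against 0.0832%). Without fulvestrant replicate 2 there were 32 with fulvestrant and not vehicle (0.377%, against 0.489%) and 7 for the reverse (0.0826%, against 0.147%). The first of these was 88 without fulvestrant replicate 1 and 55 without replicate 3. For E2 plus fulvestrant and not E2 there were 46 without E2 plus fulvestrant replicate 1. In both directions that start from E2, the exonic percentage was below that of all regions with and without E2 replicate 1.

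Separating regions ranked low in their lists. For E2 and not vehicle, the best ranked were in Adh7, an alcohol dehydrogenase that acts on retinol, and Akap12, an anchor for protein kinase A. Adh7 (chr3:138230976-138231459, 3′ untranslated) had exonic fold enrichment of 7.25 and 4.38 in E2 replicates 2 and 3, 6.27, 5.30 and 5.69 with E2 plus fulvestrant, and 3.76 in fulvestrant replicate 1. The peak of E2 replicate 1 in that region had its summit outside the exon. Akap12 (chr10:4354203-4355604, coding) had 3.81, 4.13 and 2.56 with E2, 3.83 and 3.06 in E2 plus fulvestrant replicates 2 and 3, and 4.18 in fulvestrant replicate 2.

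For vehicle and not E2 the named regions were in Fadd, an adaptor of death receptors, and Tubgcp6, a part of the γ-tubulin complex that starts microtubules. Fadd (chr7:144577714-144578325, 3′ untranslated) had 2.55-fold, 2.87-fold and 1.99-fold enrichment with vehicle and was also among the regions for vehicle and not fulvestrant, with the non-coding transcript 4930444A19Rik. For E2 and not E2 plus fulvestrant they were the non-coding transcript Gm26848 and Barhl1, a homeobox transcription factor, with 4.63 and 8.10 in E2 replicate 1. In E2 replicates 2 and 3 Gm26848 had 2.50 and 3.42, against 2.75 in vehicle replicate 1, and Barhl1 had 3.38 and 2.56, against 3.26 and 3.0 in vehicle replicates 2 and 3. Celf1, an RNA-binding protein, held the 1 region for E2 plus fulvestrant and not E2, with 3.23, 3.96 and 3.12. For fulvestrant and not vehicle they were Vmn1r43, a pheromone receptor, with 3.34, 3.10 and 4.81 in the fulvestrant replicates and up to 10.9 with E2 plus fulvestrant, and Nrg2, a growth factor of the neuregulin family, with 3.75, 4.33 and 3.85 in the fulvestrant replicates and 10.5 in E2 replicate 1.

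Host genes of recurrent exonic regions were spread widely. The 659 regions in 6 or more libraries were in 629 genes, of which 599 had 1 region, 30 had 2 and none had more. The first 5 of these 30 by symbol were Adgra2, Alms1-ps2, Axl, Baz2a and C730027H18Rik. Adgra2, an adhesion G protein-coupled receptor, and Axl, the receptor tyrosine kinase for Gas6, each had both regions in internal coding exons, with mean rank percentiles of 52.9 and 67.8 and of 41.5 and 42.5. Baz2a, a part of a complex that silences ribosomal DNA, had a peak of its last exon in 12 libraries, with 2.81-fold to 5.70-fold enrichment. Alms1-ps2 is a pseudogene, so its reads may be shared with a near-identical gene and its 2 regions are uncertain. C730027H18Rik is a non-coding gene with its regions in last exons.

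The gene lists, whose members were chosen with earlier results of these data known, are described by counts. Over all protein-coding genes with exonic sequence outside promoters, 530 of 17907 (2.96%) had an exonic region in 6 or more libraries, and the median gene had 2249 bp of such sequence. In extracellular matrix genes and their enzymes it was 8 of 130 (6.15%, median 4836 bp), namely Col1a1, Col5a1, Lox, Ltbp3, Ltbp4, Mmp11, Timp2 and Timp3. Longer exonic sequence gives more room for a peak, and per Mb these genes had 14.4 recurrent regions against 10.7 for all protein-coding genes.

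Col1a1, the main fibrillar collagen of muscle scar, had the strongest of them (chr11:94951752-94955129), with its best exonic summit in 3′ untranslated sequence. Fold enrichment was 7.02, 5.27 and 6.51 with vehicle, 9.12, 7.60 and 8.13 with E2, 4.05, 7.26 and 7.52 under E2 plus fulvestrant, and 4.99, 9.90 and 9.30 with fulvestrant. The 3 E2 values were above the 3 vehicle values, and the other treatments overlapped both. Timp3, an inhibitor of matrix metalloproteinases, had 3.10-fold to 9.64-fold enrichment in 11 libraries, and Mmp11, a matrix metalloproteinase, had 2.75-fold to 8.14-fold enrichment at coding summits in 7.

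In the TGF-β and BMP list 6 of 50 genes (12%, median 3009 bp) had a recurrent region, namely Acvrl1, Gdf11, Tgfb1i1, Tgfb3, Tgfbr2 and Tgfbr3. Tgfbr2, which encodes the receptor that first binds the ligand, had 2.56-fold to 5.87-fold enrichment in its 3′ untranslated sequence in 11 libraries, with none in E2 replicate 1. Tgfb3, a ligand, had 2.28-fold to 4.53-fold enrichment in 8 libraries. Of the Wnt list 1 of 47 genes (2.13%) had one, in Wnt4, a ligand, with 2.06-fold to 3.90-fold enrichment in 8 libraries.

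Among receptor coregulators it was 2 of 25 (8.0%, median 6930 bp), among them Kmt2d, a histone methyltransferase, in a coding exon. Of the AP-1 factors it was 2 of 8 (25.0%), in Fosl2 and Maff, both in 12 libraries. Fosl2, a FOS family member, had 3.43, 4.97 and 3.09 with vehicle, 6.33, 3.42 and 7.15 with E2, 2.25, 4.75 and 4.04 under E2 plus fulvestrant, and 3.50, 3.93 and 3.46 with fulvestrant, and the treatments overlapped. In the mechanosensing and cytoskeleton list it was 3 of 21 (14.3%), in Myh9, Tead3 and Zyx. Zyx, which encodes zyxin of focal adhesions, had 2.90-fold to 8.95-fold enrichment at exonic summits in 11 libraries.

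Zinc finger genes had 15 of 440 (3.41%), homeobox cluster genes 1 of 9 (11.1%, Hoxb9) and protocadherins 1 of 60 (1.67%, Pcdhgc4, whose summit lay in exons shared by 22 genes of the cluster). The lists of under 30 genes rest on 1 to 3 regions each. No test was run on the lists.

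Of 16 genes singled out by the study and found in the annotation, 15 had exonic sequence outside promoters, and Pgr was among those with an exonic region in 6 or more libraries. That list was chosen on these samples, so its counts are no independent evidence. Pgr encodes the progesterone receptor, a classic ESR1 target, and its region (chr9:8967873-8968756) lay in the 3′ untranslated sequence of the last exon, 3626 bp from a TSS. Fold enrichment was 3.18 in vehicle replicate 3, 8.26 and 4.68 in E2 replicates 2 and 3, and 2.72, 3.85 and 2.97 with E2 plus fulvestrant. No other library had a peak there, so that E2 replicate 1, 2 vehicle libraries and all fulvestrant libraries lacked one.

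Adamts6, a secreted metalloproteinase, had 2 regions, of which a coding one (chr13:104397638-104398354) had a peak in 4 libraries and a 3′ untranslated one (chr13:104495550-104496448) in 5. Nrp2, a semaphorin receptor, had 9 exonic regions in all but only 1 in 3 or more libraries (chr1:62798854-62799229), with a fold of 3.0 and 2.47 in E2 replicates 2 and 3 and 2.91 in E2 plus fulvestrant replicate 1. Greb1, another classic ESR1 target, had 1 exonic region in fewer than 3 libraries, and Smad3 had 3. No exonic region was found for Ccn3, Cdc7, Efemp1, Fbln7, Ltbp1, Ncam1, Piezo2, Tgfb2 and Wee1.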

How the data were processed

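ESR1 ChIP-Seq peak lists of 12 libraries were used, with groups and replicate numbers from the labels. The input sample was not analysed here. As the study's methods state, the authors used Trimmomatic 0.39 for trimming, Bowtie2 for alignment to mm10, Picard 2.21.4 against duplicates and MACS2 for peak calling. The authors described a blacklist filter, and whether the deposited lists precede it was not stated. Each deposited list gave a score, the fold enrichment at the summit as a ratio, and the −log10 of the p-value and q-value, all computed by the authors. The smallest −log10 p was 2.00 to 2.04, so lists were kept by p-value. The score was not used. Ranks were taken within a list, and folds of different lists were set side by side as deposited, with no rescaling. The study's model of read counts with a batch term could not be run here, since lists hold no counts and the labels name no batch.

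Summits were placed on the GENCODE vM21 basic annotation with Python 3.11.15, NumPy 2.4.6, pandas 2.3.3 and SciPy 1.17.1, and sequences were read from GRCm38.p6 (RefSeq). A host gene was the protein-coding gene at the summit if there was one. Windows reached 100 bp on each side of a summit. Repeat-masked meant over 50% soft-masked. Annotation and merging were tested on planted intervals. Shares of libraries were compared with two-sided exact permutation tests and exonic with intronic values by exact sign flips over 12 libraries, with Benjamini-Hochberg adjustment. Single-library shares carry Wilson 95% intervals.

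Named regions were the 10 best ranked in at least 10 libraries, the 5 best ranked with an ERE and a peak in at least 4 of 6 libraries given E2, the 2 best ranked in each direction of 3 separating comparisons, the first 5 host genes by number of recurrent regions, and genes of the study with a region in at least 3 libraries. Regions of the gene lists were added after their values were seen. Some regions that met these rules are not reported here. Members and lists were chosen with earlier results of these data known. Alternatives were other q-value limits, removal of repeat-masked peaks, a 1 kb limit, other annotations, each replicate left out and a replicate block.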

Additional observations from a re-analysis of the deposited data

How the results depend on the processing

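Of 345 alternative values of 24 results, 274 kept their direction and their side of the threshold (for counts, stayed within 1.5 times). None was lost, 4 passed the threshold only under the alternative, 18 changed sign and 49 counts moved further, and the causes were not tested. Comparisons of 3 libraries against 3 could not change side, since their smallest exact permutation p is 0.1. Only the ERE, repeat-masked and GC differences had passed, so only these could be lost. The ERE, repeat-masked and GC differences between exonic and intronic peaks kept their calls under the alternatives run for them, which did not include protein-coding exons only, the replicate block or, for the repeat-masked difference, removal of repeat-masked peaks. The ERE difference was −8.12 points at a −log10 q of at least 10 and between −1.20 and −0.849 under the other filters and annotations.

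For the exonic share, E2 plus fulvestrant minus vehicle was 0.0271 points at a q-value of at most 0.05 and 0.00855 at a −log10 q of at least 10. E2 minus vehicle was −0.0307 with a 1 kb promoter limit, and E2 given minus not given 0.0550 without repeat-masked peaks. With single replicates left out these 3 ranged from −0.253 to 0.170, from −0.0753 to 0.395 and from −0.534 to 0.0546 points, and E2 minus E2 plus fulvestrant from −0.0483 to 0.453. The difference of differences ranged from −1.72 (without fulvestrant replicate 1, exact permutation p = 0.0400) to −0.307. At a −log10 q of at least 10 the ERE share of E2 minus vehicle was −2.63 points, E2 minus E2 plus fulvestrant −3.47, fulvestrant minus vehicle −2.42, E2 given minus not given 0.313 (exact permutation p = 0.857) and the difference of differences 5.89 (exact permutation p = 0.0866). Otherwise E2 given minus not given was 0.833 with all transcripts, 0.995 in the 10 libraries (added after seeing the data), and from 0.679 to 1.01 with replicates left out, and E2 minus E2 plus fulvestrant from −0.665 to 0.0276. The last-exon share ranged from −4.59 (without fulvestrant replicate 2) to 2.84 (without E2 replicate 1). The top-10% share, exonic minus intronic, was −0.427 with all transcripts and from −0.118 to 0.323 with libraries left out. Exonic peaks numbered 1810 at a −log10 q of at least 10 (added after seeing the data).

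Counts of separating regions moved most. When a peak in 2 of 3 libraries sufficed, there were 218 for E2 and not vehicle and 22 for the reverse, 135 for E2 and not E2 plus fulvestrant and 58 for the reverse, and 143 for fulvestrant and not vehicle and 50 for the reverse. When any exonic summit made a region exonic, there were 46, 10, 24 and 5 for those of E2, and 8 for vehicle and not fulvestrant. At a q-value of at most 0.05 there were 0 for vehicle and not E2 and 0 for vehicle and not fulvestrant. Without repeat-masked peaks there were 2 for E2 plus fulvestrant and not E2. With summits widened by 100 bp there were 15 for vehicle and not E2, 9 for E2 plus fulvestrant and not E2, and 7 for vehicle and not fulvestrant. With replicates left out, the ranges were 25 to 138 for E2 and not vehicle and 14 to 73 for E2 and not E2 plus fulvestrant, both highest without E2 replicate 1. They were 3 to 46 for E2 plus fulvestrant and not E2 (highest without E2 plus fulvestrant replicate 1) and 20 to 88 for fulvestrant and not vehicle (highest without fulvestrant replicate 1). For vehicle they were 4 to 13 against E2 and 6 to 28 against fulvestrant, both highest without vehicle replicate 2.

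With replicate number as a block, the ERE share with E2 given exceeded that without by 0.804 points (exact permutation p = 0.0278, adjusted p = 0.139). No call changed, but those of 3 libraries against 3 could not, since their smallest exact permutation p is then 0.25. Same-numbered libraries of different treatments did not pair, with correlations of their deviations over exonic regions of −0.461 to 0.373 (mean 0.00447, 18 pairs), against −0.498 to 0.650 for other pairs (36). Peak lists limit precision to presence and rank, and a site just under the caller's threshold counts as absent. Few ERE windows per library (10 to 49) bound the ERE comparisons.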
